A study of Homo sapiens and Mus musculus with 34 samples.

Results

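BE(2)C cells, written BE2C here, were given the kinase inhibitor CYC065 and compared with untreated BE2C cells, to see which RNAs had changed after 1 h. The comparison rests on 6 of the 34 arrays of the series, chosen by their labels: 3 arrays of cells given 1 µM CYC065 for 1 h and 3 arrays of untreated cells. BE2C is a human neuroblastoma line with an amplified MYCN gene, a clone of the line SK-N-BE(2), so each value below describes 1 clone grown in culture. The labels call the control cells untreated, while the study's design text describes them as given DMSO. The other 18 human arrays hold Kelly, SKNAS and SHSY5Y cells, each line with 3 arrays after CYC065 for 1 h and 3 untreated arrays, and are used here only to show where BE2C differed. Kelly and SHSY5Y received 1 µM; the dose of SKNAS is 1 µM by its labels but 5 µM by the protocol. The arrays of a group are described as biological replicates, with no culture named for each, so the p-values measure the spread among these arrays.

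CYC065, also known as fadraciclib, inhibits the cyclin-dependent kinases CDK2 and CDK9. CDK9 with a cyclin T forms P-TEFb, the kinase that releases RNA polymerase II from its pause near the start of genes into productive elongation, and that is held inactive by HEXIM1 on the 7SK RNA. Soon after elongation is blocked, the mRNAs that drop first are those that decay fast, such as mRNAs of transcription factors, feedback regulators of signalling and MCL1. MYCN, the MYC family factor that drives a large share of aggressive neuroblastomas, has a short-lived mRNA and protein. It acts in adrenergic neuroblastoma cells beside a circuit of lineage factors that includes HAND2, GATA3 and ISL1.

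Levels are the deposited log2 values of an Affymetrix transcriptome array. Changes are CYC065 minus untreated on the same log2 scale, given with the standard error from limma. Genes with an adjusted p below 0.05, by Benjamini-Hochberg over the 32870 gene symbols tested, count as called. The 6 arrays were alike as a whole. Their median over genes was 5.42, 5.40 and 5.44 on the CYC065 arrays, against 5.43, 5.48 and 5.39 on the untreated arrays (two-sided exact permutation test, p = 0.8). Values correlated across genes at 0.9951 to 0.9975 between arrays of a group and at 0.9934 to 0.9954 between arrays of different groups. The 23 background rows of the array, which should bind no transcript, had a median of 3.72, 3.86 and 3.85 on the CYC065 arrays and 3.71, 3.71 and 3.66 on the untreated arrays (two-sided exact permutation test, p = 0.1, the smallest that 3 against 3 arrays allow). The cells carried the markers of the adrenergic type at unequal levels. In untreated cells these ran from 7.37 in TH and 7.66 in ELAVL4 to 11.68 in STMN2. DBH, which makes noradrenaline, averaged 11.53 ± 0.08 and GATA3 9.69 ± 0.09 (SD, n = 3). MYCN, taken as the marker of its amplification, averaged 11.72 ± 0.08. Of 28 markers of blood, endothelial, epithelial, stromal, glial and pigment cells, 27 were measured. Their levels ran between 3.00 and 7.16 on the CYC065 arrays, with a median of 5.03, and between 2.92 and 7.09 on the untreated arrays, with a median of 4.98, and none was called. In bulk RNA, fewer cells of a type and less RNA per cell cannot be told apart.

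After 1 h of CYC065, falls outnumbered rises. Of the 32870 genes, 993 (3.02%) were lower and 227 (0.691%) were higher. Dim genes were seldom called lower, as given below. In 5 bins by length of protein-coding genes with a mean level of at least 6, 5.88 to 8.23% were lower. Most gene lists below have a median level of that order, so their shares are to be read against that range too. The falls took in NFKBIA, the inhibitor that holds NF-kB in the cytoplasm, MYCN itself, the lineage factors GATA3 and ISL1, and 193 zinc finger genes with ZNF or ZFP names. The rises were led by names of U1 small nuclear RNA copies. Most changes were small. At least 2-fold, 46 genes were lower and 18 higher, and at least 1.5-fold 269 were lower and 65 higher. At an unadjusted p under 0.05, 5547 genes passed. The authors' deposited table calls 595 of the same genes, 516 lower and 79 higher, and all 595 were also called here. Leaving out single arrays left between 479 calls (without untreated replicate 3) and 918 calls (without CYC065 replicate 4); without untreated replicates 1 and 2 the calls numbered 530 and 618, and without CYC065 replicates 5 and 6 they numbered 716 and 699.

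NFKBIA had the largest fall once small RNA, receptor, clone and open reading frame names were left out. It measured 7.74, 7.67 and 7.73 on the CYC065 arrays and 9.28, 9.25 and 9.22 on the untreated arrays, with a wide gap between the groups. It fell by 1.53 ± 0.05, which is 2.89-fold (limma, adjusted p = 0.000125). EIF5, which triggers GTP hydrolysis by the initiation complex at the start codon, measured 8.27, 8.34 and 8.28 on the CYC065 arrays and 9.68, 9.74 and 9.77 on the untreated arrays, and fell by 1.44 ± 0.05 (adjusted p = 0.000157). Of 30 measured genes of translation initiation, EIF5 and EIF4A2 were called lower (6.67%). That share lies within the 5.88 to 8.23% of protein-coding genes with a mean level of at least 6. EIF4A2 fell by 0.35 and lost the call without 5 of the 6 arrays. Its symbol has 2 array rows, of which the brighter was used, and with the mean of both rows the change was -0.08 (adjusted p = 0.557). HES1, a Notch target that represses neuronal differentiation, measured 4.91, 4.61 and 4.36 on the CYC065 arrays and 5.82, 5.99 and 6.20 on the untreated arrays. The groups did not overlap, although both were spread widely, and HES1 fell by 1.37 ± 0.15 (adjusted p = 0.00482). PCDH18, a protocadherin of the cell surface, measured 6.52, 6.54 and 6.54 on the CYC065 arrays against 7.80, 7.83 and 7.94 on the untreated arrays, a fall of 1.32 ± 0.06.

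PPP1R10, which targets protein phosphatase 1 to the nucleus and to the polymerase, measured 7.97, 7.97 and 7.95 on the CYC065 arrays and 9.21, 9.25 and 9.30 on the untreated arrays, and fell by 1.29 ± 0.05. PCF11, which couples cleavage of the mRNA 3′ end to termination, measured 6.46, 6.63 and 6.48 on the CYC065 arrays and 7.73, 7.51 and 7.72 on the untreated arrays, and fell by 1.13 ± 0.08. ZFP36L2, which binds AU-rich mRNAs and brings about their decay, measured 7.79, 7.57 and 7.57 on the CYC065 arrays and 8.63, 9.03 and 8.94 on the untreated arrays, and fell by 1.22 ± 0.12. In each of these genes all 3 CYC065 arrays lay below all 3 untreated arrays. WEE1, the kinase that holds CDK1 inactive before mitosis, measured 6.07, 6.20 and 6.15 on the CYC065 arrays and 7.46, 7.34 and 7.42 on the untreated arrays, and fell by 1.27 ± 0.06. BAMBI, a decoy receptor of the TGF-beta family, measured 7.10, 7.16 and 6.98 on the CYC065 arrays and 8.33, 8.06 and 8.35 on the untreated arrays, a fall of 1.17 ± 0.09. INSM2, a zinc finger repressor of neuroendocrine cells, measured 7.62, 7.41 and 7.69 on the CYC065 arrays against 8.86, 8.71 and 8.91 on the untreated arrays, a fall of 1.25 ± 0.09. The chromatin factor ARID5B fell by 1.11 ± 0.08. The 20 largest falls held their call without any single array and under each other processing alternative in which they were tested.

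**Figure D1:**
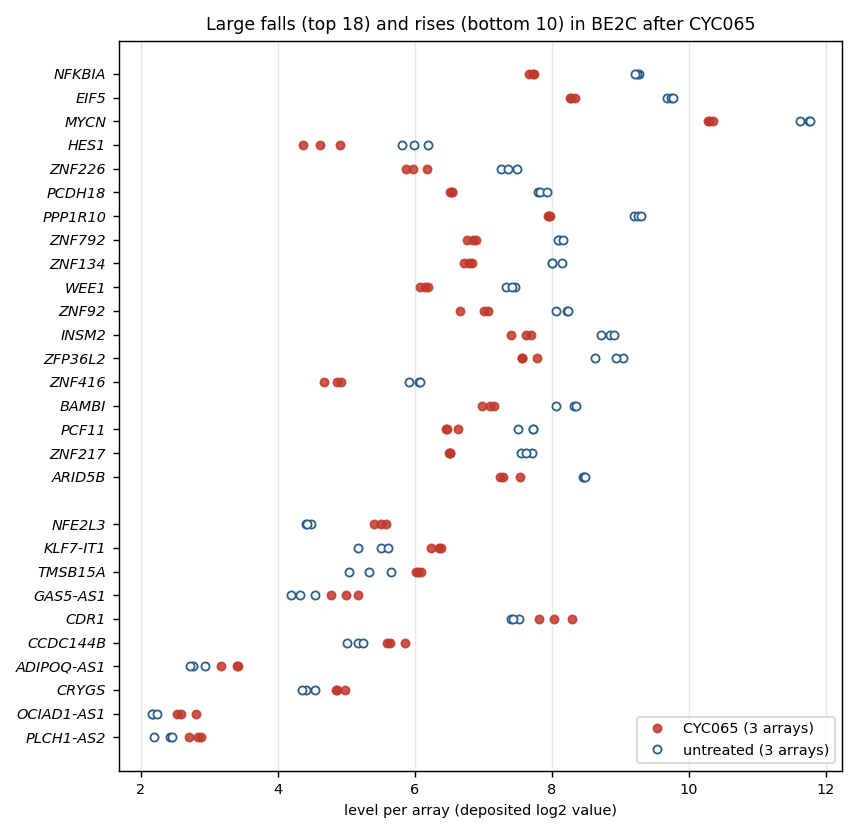
Levels on each array (x axis, deposited log2 value) of 18 of the 20 genes with the largest falls, in the upper block, and the 10 with the largest rises, in the lower block, after small RNA, receptor, clone and open reading frame names were left out. Filled circles are the 3 CYC065 arrays and open circles the 3 untreated arrays; in every gene drawn the circles of the groups are apart, which the choice of genes required, and the falls are wider than the rises.

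Within the MYC network, a set of 13 measured genes, 3 were lower (23.1%, against 3.02% of all genes) and none higher. The median change of the set was -0.03, against 0.01 over all genes. MYCN measured 10.35, 10.30 and 10.28 on the CYC065 arrays and 11.63, 11.76 and 11.76 on the untreated arrays. The groups were far apart, and MYCN fell by 1.41 ± 0.06, which is 2.65-fold (adjusted p = 0.000182). The other falls of the network were MNT, by 0.43, and MXD1, by 0.40, both partners of MAX that oppose MYC proteins. The call of MNT was lost without untreated replicate 3 (adjusted p up to 0.0573 over the alternatives). MAX, the partner MYC proteins need to bind DNA, had a change of -0.01 and was not called. MYC, which is at a low level in BE2C, measured 5.61, 5.61 and 5.52 on the CYC065 arrays and 5.44, 5.52 and 5.43 on the untreated arrays. Its change of 0.11 ± 0.06 was not called (adjusted p = 0.361). Of 29 genes for growth and nucleolar functions that MYC proteins activate in many cells, 2 were lower (6.9%). That share lies within the 5.88 to 8.23% of protein-coding genes with a mean level of at least 6. The 2 falls are therefore not read as a result about MYC targets. The lower genes were RRS1, a factor of ribosome assembly, which fell by 0.62, and POLR1B, a subunit of RNA polymerase I. POLR1B fell by 0.33 and lost the call without 5 of the 6 arrays. ODC1, the polyamine enzyme long used as a MYC target, had a change of -0.12 and was not called (adjusted p = 0.317).

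Many transcription factors of the adrenergic state were lower. Of 28 measured, 13 were lower (46.4%, against 3.02% of all genes) and none was higher, with a median change of -0.25. GATA3, a zinc finger factor of the sympathetic lineage, measured 8.94, 8.77 and 8.76 on the CYC065 arrays and 9.59, 9.76 and 9.71 on the untreated arrays, and fell by 0.86 ± 0.07 (adjusted p = 0.0022). ISL1, a LIM homeodomain factor, measured 8.77, 8.84 and 8.75 on the CYC065 arrays and 9.56, 9.60 and 9.65 on the untreated arrays, and fell by 0.82 ± 0.05. For both of these factors the groups were apart by more than the whole spread within a group. KLF7 fell by 0.88, TBX2 by 0.61, SOX4 by 0.56 and GATA2 by 0.55. HAND2, which sustains the noradrenergic programme, had a change of -0.16 ± 0.05 and was not called (adjusted p = 0.188). Without untreated replicate 3 the count of adrenergic factors was 6, and without CYC065 replicate 6 it was 8.

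Products that such factors maintain were not called at 1 h. Of 25 enzymes, transporters and granule proteins of sympathoadrenal cells none passed, and their median change was 0.01. TH, which makes L-DOPA, had a change of 0.09, and DBH of -0.05. Among 30 factors of the mesenchymal state of neuroblastoma, 7 were lower (23.3%, against 3.02% of all genes) and the median was -0.01. SNAI1 and SNAI2, repressors of epithelial genes, were among these 7 and fell by 1.09 and 0.53. No change of a list median was altered by more than 0.1 when the arrays were quantile normalised or centred.

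Of 36 immediate early genes, which cells make within minutes of a signal, 11 were lower (30.6%, against 3.02% of all genes) and none higher, with a median of -0.16. TRIB1, a pseudokinase scaffold, fell by 1.03, KLF6 by 0.90, RHOB, a small GTPase, by 0.81 and KLF10 by 0.74. FOS, the prototype of the class, measured 5.12, 4.95 and 5.11 on the CYC065 arrays and 5.04, 5.15 and 5.01 on the untreated arrays, so its groups overlapped and it was not called. EGR1 fell by 0.41 ± 0.06 (adjusted p = 0.012), a call lost without untreated replicates 1 or 2. JUN fell by 0.41 ± 0.07 (adjusted p = 0.0217), a call lost without any of the arrays but CYC065 replicate 4, and under quantile normalisation and centring. Of 30 genes of growth factor feedback 10 were lower (33.3%), with a median of -0.14. RGS2 fell by 0.96, RGS16, like it a brake on G protein signalling, by 0.90, SPRY2, an inhibitor of receptor kinase signalling, by 0.90, and DUSP4, a phosphatase of MAP kinases, by 0.76. Without CYC065 replicate 6 that count was 6; without untreated replicates 1 or 2 the count of immediate early genes was 7.

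Of 18 subunits and inhibitors of the NF-kB pathway 2 were lower (11.1%, against 3.02% of all genes), NFKBIA and the subunit gene REL, which fell by 0.32 and lost the call without 5 of the 6 arrays. Of 28 genes in the Notch, ID and TGF-beta list, 11 were lower (39.3%), with a median of -0.22. Beside HES1 and BAMBI they include NRARP, a feedback inhibitor of Notch, which fell by 0.77, ID2, which fell by 0.63, HEY1, a relative of HES1, which fell by 0.58, and ID1, which fell by 0.58. The ID proteins bind and disable bHLH transcription factors. Without single arrays between 8 and 10 of the 28 were called.

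Genes whose products shorten the life of mRNAs were often lower. Of 28 regulators of mRNA decay 13 were lower (46.4%), none was higher, and the median was -0.24. Besides ZFP36L2 these included TOB1 and TOB2, which recruit the deadenylase complex and fell by 0.73 and 0.71, DCP1A, a part of the decapping complex, which fell by 0.63, and BTG2, which fell by 0.55. Without untreated replicate 3 the count was 7, and without untreated replicates 1 or 2 it was 8. In the list of ATF4 targets and the unfolded protein response 8 of 23 were lower (34.8%, against 3.02% of all genes), with a median of -0.18. PPP1R15B, which directs phosphatase 1 to eIF2 and so restores translation, fell by 0.72, DDIT4, an inhibitor of mTORC1, by 0.64, XBP1 by 0.47 and HERPUD1 by 0.42. Without untreated replicates 1 or 2 the count was 4, and without CYC065 replicate 4 or untreated replicate 3 it was 5. Of 17 FOXO and growth arrest genes 4 were lower (23.5%). ARRDC3 fell by 1.05, TXNIP, an arrestin relative that limits glucose uptake, by 0.87, and CCNG2 by 0.74. With the mean of 2 rows the falls were smaller in PPP1R15B, at -0.44, and CCNG2, at -0.41, and both were still called.

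Among genes of cell cycle entry 12 of 31 were lower (38.7%), with a median of -0.15. Of 27 mitotic genes 1 was lower (3.7%, against 3.02% of all genes and 5.88 to 8.23% of protein-coding genes with a mean level of at least 6). The difference between the entry and mitotic lists was not tested. The entry genes include CCNG2, E2F8, which fell by 0.68, CDKN1B, an inhibitor of CDK2, which fell by 0.59, and E2F3, which fell by 0.55. Without untreated replicate 3 the count was 4, without untreated replicate 1 or CYC065 replicate 6 it was 7, and without untreated replicate 2 it was 8. The mitotic gene was AURKA, whose fall of 0.30 lost the call without any single array. CCND1 had a change of -0.16 and was not called (adjusted p = 0.253). In the BCL2 family 2 of 18 were lower (11.1%). MCL1, a guard against apoptosis with a short-lived mRNA, measured 8.83, 8.76 and 8.76 on the CYC065 arrays and 9.49, 9.37 and 9.47 on the untreated arrays, and fell by 0.66 ± 0.06 (adjusted p = 0.00215). BCL2L11, which encodes the opposing protein BIM, fell by 0.51. BCL2 had a change of -0.18 and was not called (adjusted p = 0.276). Of 19 targets of p53 2 were lower (10.5%), among them PPM1D, the phosphatase that shuts off the p53 response, which fell by 0.91. CDKN1A had a change of -0.02. Of 26 genes of homologous recombination and damage signalling 4 were lower (15.4%). PALB2, the partner of BRCA2, fell by 0.72 and BARD1, the partner of BRCA1, by 0.44. The other falls of this list, in EXO1 and XRCC2, lost the call without at least 5 of the 6 arrays.

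None of 12 transcriptional CDKs and cyclins apart from P-TEFb was called. In the list of P-TEFb, 7SK and elongation genes 4 of 33 were lower (12.1%, against 3.02% of all genes), a count that every array left out in turn kept at 4. CCNT1, the cyclin of P-TEFb, measured 7.83, 7.94 and 7.87 on the CYC065 arrays and 8.38, 8.35 and 8.45 on the untreated arrays, and fell by 0.52 ± 0.06 (adjusted p = 0.00441). CCNT2 fell by 0.52, MEPCE, which caps and protects 7SK, by 0.56 and ELL, an elongation factor, by 0.48. CDK9 had a change of -0.16 ± 0.05 (adjusted p = 0.191) and HEXIM1 of -0.21 ± 0.08 (adjusted p = 0.261), and neither was called. POLR2A, the largest polymerase subunit, had a change of -0.12 (adjusted p = 0.554). Of 33 genes of the general machinery 3 were lower (9.09%), MED17, MED13 and TAF5, by 0.49, 0.38 and 0.33, and each of these lost the call without at least 4 of the 6 arrays. That share is near the 5.88 to 8.23% of protein-coding genes with a mean level of at least 6. Of 28 CLK, DYRK and SR splicing genes 5 were lower (17.9%), led by the splicing kinase CLK1, which fell by 0.76, and DYRK1A, which fell by 0.56. Without untreated replicates 1 or 3 the count was 2, and without CYC065 replicates 4 or 5 it was 3.

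Chromatin regulators were called lower in 12 of 52 cases (23.1%, against 3.02% of all genes), with a median of -0.17. KMT2E fell by 0.71, the remodeller CHD1 by 0.66, the demethylase KDM2A by 0.66 and the acetyltransferase EP300 by 0.58. Without untreated replicate 3 the count was 3, without untreated replicate 2 it was 4, without untreated replicate 1 or CYC065 replicate 6 it was 6, and with dim genes left out it was 24. Some lists of genes that every cell expresses at a high level held no call. None of 61 cytosolic ribosomal protein genes (median 0.04), 62 nuclear genes of the respiratory chain (median 0.06) or 31 proteasome subunit genes was called, and GAPDH had a change of 0.01. Under the alternative with a variance trend 1 ribosomal and 3 respiratory genes were called, and with dim genes left out 4 respiratory genes. The remaining lists held few calls. Of 19 heat shock factors and chaperones 2 were lower (10.5%), DNAJB1 by 0.52 and HSF2 by 0.41. Of 20 clock genes PER2 was lower, by 0.31, a call lost without any single array. Of 20 hypoxia genes VEGFA was lower, by 0.64, and PDK1 higher, by 0.29, the rise being lost without any single array. Of 19 phosphatase 1 regulators the 2 falls were PPP1R10 and PPP1R15B. Of 12 protocadherins outside the gene clusters 2 were lower, PCDH18 and PCDH17, and PCDH17, which fell by 0.28, lost the call without any single array.

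**Figure D2:**
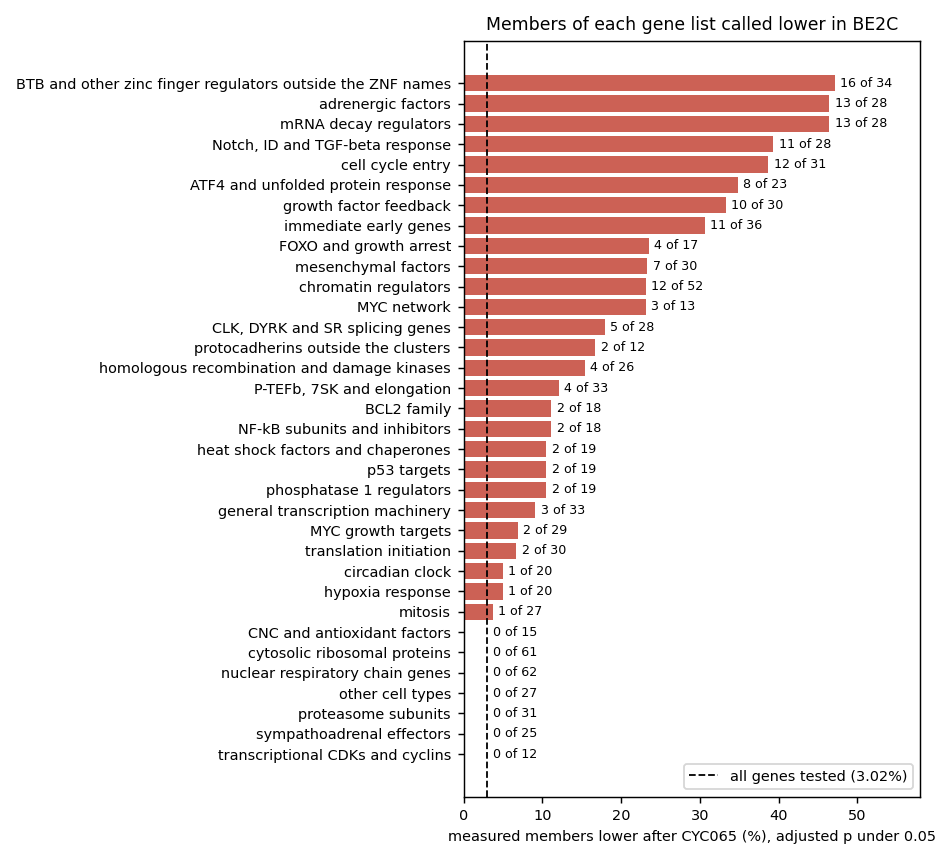
Share of the measured members of each gene list that were lower after CYC065 (x axis, percent, adjusted p under 0.05), with the count beside each bar and the share over all genes tested, 3.02%, as a dashed line. BTB and other zinc finger regulators (16 of 34), adrenergic factors (13 of 28) and mRNA decay regulators (13 of 28) have the longest bars, and 7 lists, among them ribosomal proteins and sympathoadrenal effectors, have no member called lower.

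Zinc finger genes made up 193 of the 993 falls. They encode the largest family of human transcription factors, many of which repress mobile elements through a KRAB domain. Of 539 genes with ZNF or ZFP names 35.8% were lower and none was higher, and the median over the 539 was -0.23. ZNF226 measured 6.18, 5.97 and 5.87 on the CYC065 arrays and 7.50, 7.26 and 7.37 on the untreated arrays, and fell by 1.37 ± 0.10. ZNF792 measured 6.90, 6.76 and 6.86 on the CYC065 arrays and 8.11, 8.09 and 8.17 on the untreated arrays, and fell by 1.29 ± 0.06. ZNF134 measured 6.72, 6.84 and 6.80 on the CYC065 arrays and 8.01, 8.01 and 8.16 on the untreated arrays, and fell by 1.27 ± 0.06. In all 3 genes every CYC065 array was below every untreated array by more than the spread of either group. ZNF92 fell by 1.26 ± 0.11, ZNF416 by 1.20 and ZNF217, a repressor often amplified in tumours, by 1.12 ± 0.06. Without untreated replicate 3 the count of falls was 111 and without untreated replicate 1 it was 121; the other single arrays left between 136 and 152. Zinc finger regulators outside the ZNF names did likewise. Of 34 such genes, mostly with a BTB domain, 16 were lower (47.1%, against 3.02% of all genes), with a median of -0.27. ZBTB18, a repressor of neuronal development, fell by 0.85, ZBTB39 by 0.68, ZBTB6 by 0.65 and ZBTB20 by 0.62. With the mean of 2 rows the changes were -0.90 in ZNF226 and -0.31 in ZBTB20, and both were still called. Each of the 6 arrays, left out in turn, brought the count down, to between 5 and 10 of the 34.

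The zinc finger genes are clustered on chromosome 19, and the falls followed them there. Of the tested genes on chromosome 19, 8.14% were lower, the highest share of any chromosome, followed by chromosome 16 with 4.66%. On chromosome 19 114 of 253 zinc finger genes were lower (45.1%), against 22 of 1418 other genes (1.55%). On other chromosomes 79 of 285 zinc finger genes were lower (27.7%). On that chromosome the falls were thus mostly those of the family. Whether probes of family members share sequence was not tested.

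The promoters of zinc finger genes were searched for 5 motifs on both strands, from 250 bases before to 50 bases after the start in RefSeq's table for GRCh38.p14, which holds 147 of the 193 lower genes. The kappa-B letters GGGNNTTCC stood in 17% of these 147, in 7.29% of 192 zinc finger genes not called lower, in 6.84% of 380 other lower genes and in 6.56% of all 22114 promoters of the table. The E-box CACGTG, which MYCN can bind, stood in 10.2% of 527 lower genes and 7.28% of all promoters, but in 11.1% of protein-coding genes with a mean level of at least 6. The GC box GGGCGG stood in 70.8% of lower genes, 43% of all promoters and 74.2% of the genes at that level. For the TATA box TATAAA the shares were 6.45%, 12.7% and 5.12%, and for the CRE core TGACGTCA 4.55%, 2.01% and 3.78%. The kappa-B and GC box letters can overlap, and a match describes letters only. The 250 bases before the start of ZNF134 and ZNF792 are shown because these are leading falls of the family with kappa-B letters; they are read 5′ to 3′ on the strand of the gene, with kappa-B and GC box letters on either strand in capitals.
ZNF134 (plus strand, chr19:57613992-57614241): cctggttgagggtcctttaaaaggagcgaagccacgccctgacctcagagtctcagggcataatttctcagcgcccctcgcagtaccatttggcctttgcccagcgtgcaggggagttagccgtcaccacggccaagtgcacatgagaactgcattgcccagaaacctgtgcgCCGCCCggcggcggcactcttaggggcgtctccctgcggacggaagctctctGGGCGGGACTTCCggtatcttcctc
ZNF792 (minus strand, chr19:34964230-34964479): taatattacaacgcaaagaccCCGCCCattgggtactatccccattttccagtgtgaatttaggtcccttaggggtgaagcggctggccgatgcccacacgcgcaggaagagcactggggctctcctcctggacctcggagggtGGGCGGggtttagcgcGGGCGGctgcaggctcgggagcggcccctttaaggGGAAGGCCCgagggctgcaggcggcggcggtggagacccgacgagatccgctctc

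Rises were fewer and of another kind. Of the 227, 82 carried names of small nuclear RNA genes, most of them copies of U1, the RNA of the spliceosome that pairs with the 5′ splice site. Of 107 U1 names 49 were higher (45.8%, against 0.691% of all genes) and none lower, with a median of 0.45 over the 107. RNU1-92P measured 8.47, 8.79 and 8.18 on the CYC065 arrays and 5.17, 5.20 and 5.67 on the untreated arrays, and was higher by 3.13 ± 0.19, which is 8.76-fold (adjusted p = 0.000646). RNU1-122P measured 7.89, 7.65 and 7.80 on the CYC065 arrays and 5.13, 4.98 and 5.39 on the untreated arrays, and was higher by 2.61 ± 0.11. RNU1-59P measured 10.82, 10.76 and 10.69 on the CYC065 arrays and 8.32, 8.27 and 8.52 on the untreated arrays, and was higher by 2.39 ± 0.08. All CYC065 arrays stood far above all untreated arrays in these 3. The copies are nearly identical in sequence, so probes can read RNA of one copy under the name of another, and the 49 are not 49 independent results. Of 69 U2 names 13 were higher (18.8%, against 0.691% of all genes). They were led by RNU2-63P at 6.87, 6.99 and 6.79 on the CYC065 arrays and 4.16, 4.35 and 4.42 on the untreated arrays, a change of 2.57 ± 0.09. Of 30 U5 names 5 were higher (16.7%) and of 8 U11 and U12 names 3 (37.5%). U4 names were higher in 4 of 89 (4.49%). Of 1236 names of U6, an RNA made by RNA polymerase III, 5 were higher (0.405%) and 7 lower (0.566%), but 1050 of them had an untreated mean under 5. Among other RNAs of that polymerase, 3 of 282 names of 7SK and signal recognition particle RNA were higher (1.06%, against 0.691% of all genes) and 1 was lower. Of the names of 5S ribosomal RNA 4 rose, RNA5SP255 by 1.20, RNA5SP129 by 0.98, RNA5SP318 by 0.80 and RNA5SP295 by 0.76, while 3 others, RNA5SP82, RNA5SP383 and RNA5SP457, were lower. The 5S names belong to a class of 548 names of other small RNAs. In that class 6 were higher (1.09%, against 0.691% of all genes) and 3 lower (0.547%, against 3.02% of all genes). The differences between these classes were not tested. Of 157 U7 names 6 were lower (3.82%, against 3.02% of all genes), and all 157 had an untreated mean under 5, with a median of 2.72. Replication-dependent histone genes were lower in 12 of 69 (17.4%, against 3.02% of all genes) and higher in 1. Without untreated replicate 3 the count of U1 names was 23, without untreated replicate 1 it was 27, and without CYC065 replicates 5 or 6 it was 28 and 30. Most names of this class are dim: 1455 of 1760 had an untreated mean under 5.

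NFE2L3 encodes a CNC factor related to NRF2. It measured 5.58, 5.41 and 5.51 on the CYC065 arrays and 4.49, 4.42 and 4.43 on the untreated arrays, and rose by 1.06 ± 0.06 (2.08-fold, adjusted p = 0.000599). This is the value of the brighter of its 2 rows, and with the mean of both the rise was 0.54 and still called, smaller than that of KLF7-IT1, which was 0.76 or more under every alternative run. NFE2L3 was the 1 gene called of 15 CNC and antioxidant factors. KLF7-IT1, a transcript from an intron of KLF7, measured 6.38, 6.24 and 6.35 on the CYC065 arrays and 5.51, 5.18 and 5.61 on the untreated arrays, and rose by 0.89 ± 0.11 (adjusted p = 0.00805). KLF7 itself fell by 0.88 on the same arrays, so a transcript of the intron and the mRNA moved in opposite directions. The calls of the 8 remaining rises drawn in the plot of leading genes, from TMSB15A at 0.72 to PLCH1-AS2 at 0.45, were lost without some single arrays. MIR15B measured 3.82, 4.25 and 4.18 on the CYC065 arrays and 2.67, 2.63 and 3.11 on the untreated arrays, a change of 1.28 ± 0.16 at a level near that of the background rows.

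**Figure D3:**
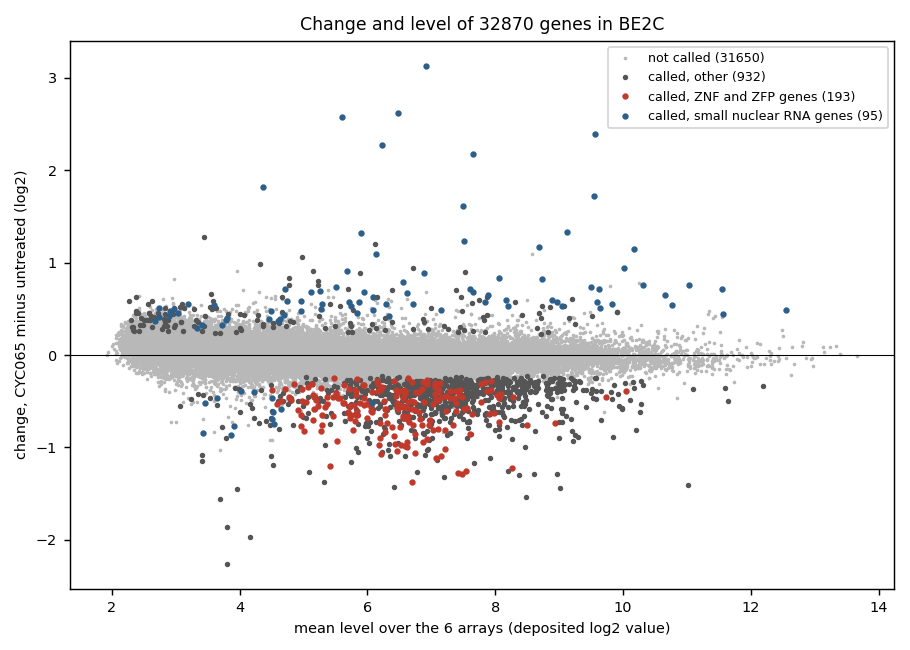
Change after CYC065 (y axis, log2) against the mean level over the 6 arrays (x axis, deposited log2 value), 1 point per gene. Called small nuclear RNA names hold the widest rises at levels up to about that of RNU1-59P, called ZNF and ZFP genes all lie below 0, and among the dimmest genes few falls were called.

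Calls depended on level. Genes were split by mean level into 5 bins of 6574 genes. From the dimmest to the brightest bin 8, 46, 140, 395 and 404 genes were lower, and 63, 37, 35, 29 and 63 were higher. The median change was 0.09 in the dimmest bin and -0.02 in the brightest, and the background rows were also slightly brighter on the CYC065 arrays, as given above. The part of that offset in the rises of dim genes was not tested. Gene length showed no order among genes with a mean level of at least 6. From the shortest to the longest of 5 bins by length 5.88, 7.2, 8.23, 7.25 and 6.27% were lower.

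A stretch of small RNA genes on chromosome 14 changed in BE2C and is described here although it was chosen after its values had been seen. Between DLK1 and DIO3 lies an imprinted cluster in which a long transcript from the maternal copy, MEG3 to MEG9, hosts many microRNAs and the C/D box snoRNAs SNORD112 to SNORD114. A microRNA guides silencing through its seed, bases 2 to 8, which pair with target mRNAs. Of the 122 genes that the reference table names there, 100 were measured. In BE2C 23 of the 100 were lower (23%) and 2 higher, with a median of -0.21. Of 53 microRNA genes 17 were lower (32.1%) and 1 higher, with a median of -0.31, and of 40 snoRNA genes 5 were lower and 1 higher. Whether a row with a microRNA's name reads the primary transcript, the hairpin or the mature RNA is not given in the sources used here. All 17 lower microRNA genes were found in RefSeq's table for GRCh38.p14, with 32 mature sequences and 27 different seeds. The mature sequences of the 5 microRNA genes whose response also differed from that in SHSY5Y are shown with those of others among the 17 that share a seed, 5′ to 3′ with the seed in capitals. All lie on the plus strand.
hsa-miR-889-3p (chr14:101047949-101047969): uUAAUAUCggacaaccauugu
hsa-miR-889-5p (chr14:101047911-101047932): aAUGGCUGuccguaguaugguc
hsa-miR-544a (chr14:101048712-101048733): aUUCUGCAuuuuuagcaaguuc
hsa-miR-382-3p (chr14:101054352-101054372): aAUCAUUCacggacaacacuu
hsa-miR-382-5p (chr14:101054316-101054337): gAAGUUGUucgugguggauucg
hsa-miR-1185-1-3p (chr14:101043029-101043050): aUAUACAGggggagacucuuau
hsa-miR-1185-5p (chr14:101042991-101043011): aGAGGAUAcccuuuguauguu
hsa-miR-323b-3p (chr14:101056269-101056290): cCCAAUACacggucgaccucuu
hsa-miR-323b-5p (chr14:101056233-101056255): aGGUUGUCcguggugaguucgca
hsa-miR-1185-2-3p (chr14:101044250-101044271): aUAUACAGggggagacucucau
hsa-miR-154-3p (chr14:101059805-101059826): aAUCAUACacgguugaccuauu
hsa-miR-487a-3p (chr14:101052494-101052515): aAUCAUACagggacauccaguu
hsa-miR-485-3p (chr14:101055464-101055485): gUCAUACAcggcucuccucucu
hsa-miR-539-3p (chr14:101047369-101047390): aUCAUACAaggacaauuucuuu
hsa-miR-654-5p (chr14:101040234-101040255): uGGUGGGCcgcagaacaugugc
hsa-miR-541-3p (chr14:101064548-101064569): uGGUGGGCacagaaucuggacu

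These sequences fall into small groups. The genes MIR1185-1 and MIR1185-2 share the seeds of both arms. The 3p arms of MIR154 and MIR487A share a seed, as do those of MIR485 and MIR539, while the 5p arm of MIR654 shares its seed with the 3p arm of MIR541. In all 5 seeds were shared, by 8 genes. MIR889 measured 2.59, 2.81 and 2.62 on the CYC065 arrays and 5.08, 4.63 and 5.09 on the untreated arrays. Its measured change was -2.26 ± 0.13 (adjusted p = 0.000599). MIR544A measured 3.16, 3.06 and 3.33 on the CYC065 arrays and 4.91, 5.36 and 5.19 on the untreated arrays, and fell by 1.97 ± 0.12. MIR382 measured 3.35, 3.19 and 3.17 on the CYC065 arrays and 4.89, 4.56 and 4.59 on the untreated arrays, and fell by 1.44 ± 0.10. MIR1185-1 measured 4.00, 3.98 and 3.86 on the CYC065 arrays and 5.08, 4.97 and 5.07 on the untreated arrays, and fell by 1.09 ± 0.06. In these 4 genes the groups were well apart, although all untreated levels were low for the array. In MIR889, MIR544A and MIR382 every CYC065 array lay below the median of the background rows on that array, so the sizes of these falls are not given as folds and carry no order. The same was true of 11 of the 23 lower genes of the stretch, and 2 of the 11, MIR539 and MIR655, lay below it on the untreated arrays too. MIR323B measured 5.04, 4.98 and 5.47 on the CYC065 arrays and 6.43, 6.14 and 6.41 on the untreated arrays, and fell by 1.16 ± 0.14 (adjusted p = 0.0073). The measured changes of the other 12 lower microRNA genes lay between -1.14 in MIR376B and -0.48 in MIR655, and most of these, MIR376B included, lost the call without some single array.

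Among the snoRNAs of the stretch SNORD113-1 measured 3.12, 2.85 and 2.64 on the CYC065 arrays and 5.16, 4.48 and 4.57 on the untreated arrays, and fell by 1.86 ± 0.20 (adjusted p = 0.00419). SNORD114-30 measured 4.48, 4.47 and 4.42 on the CYC065 arrays and 5.89, 5.54 and 5.73 on the untreated arrays, and fell by 1.27 ± 0.09. SNORD114-24 fell by 1.55 ± 0.17 and SNORD113-2 by 1.08. SNORD113-1, SNORD113-2 and SNORD114-24 also lay below the background rows on every CYC065 array. SNORD114-20 was higher by 0.94, a call lost without CYC065 replicate 6 or untreated replicate 3. The protein-coding genes at the ends were not called. DLK1, a membrane protein of immature neuroblasts, measured 11.98, 11.91 and 11.92 on the CYC065 arrays and 11.90, 11.95 and 12.02 on the untreated arrays, with overlapping groups, and DIO3 had a change of -0.05. The host transcript MEG8 had a change of -0.21 (adjusted p = 0.415) and MIR381HG of -0.56 (adjusted p = 0.137), and neither was called. With the mean of its 2 rows MEG8 had a change of -0.53 and was called (adjusted p = 0.0466), and MIR381HG was called in both fits that shared the spread over 12 or 24 arrays (lowest adjusted p = 0.0102). Of the 27 microRNA and snoRNA genes with an untreated level under 4, 4 were lower, of 58 between 4 and 8, 18, and of 8 at 8 or more, none. RTL1, a gene of retroviral origin in the stretch, fell by 0.38, a call lost without 5 of the 6 arrays. Without CYC065 replicate 5 or untreated replicates 1 or 3 the count of 23 falls was 14, without untreated replicate 2 it was 15, with dim genes left out it was 12 of 52, and over all rows of the array it was 14.

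**Figure D4:**
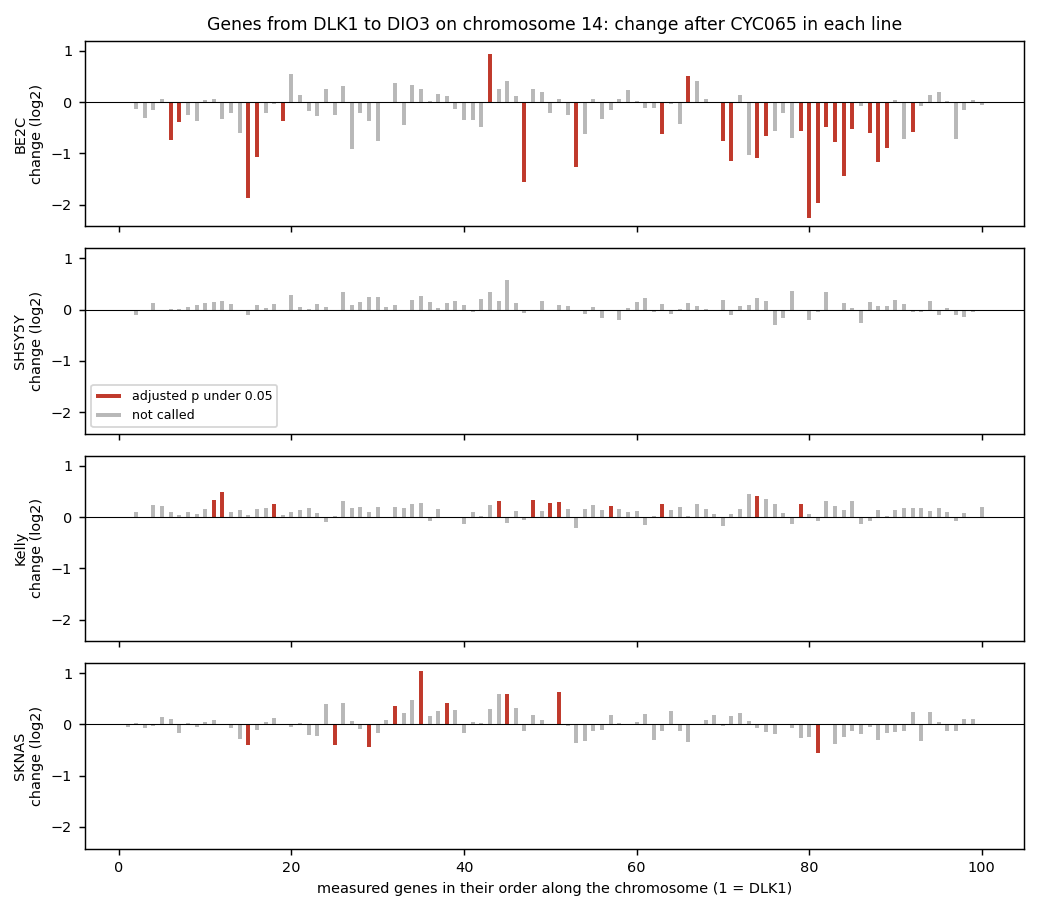
Change after CYC065 (y axis, log2) of the 100 measured genes from DLK1 to DIO3, in their order along chromosome 14 (x axis), in BE2C, SHSY5Y, Kelly and SKNAS from top to bottom. Red bars are called genes; BE2C has 23 downward and 2 upward, SHSY5Y none, Kelly 11 upward and SKNAS 4 downward and 5 upward.

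In the other lines the stretch had a median change of 0.05 in SHSY5Y, 0.14 in Kelly and 0.00 in SKNAS. The response of BE2C was then tested against that of other lines gene by gene. Of the 100 genes, 9 had a response below that of SHSY5Y (0.0548% of all genes were below) and none above (0.277% of all genes were above). These were MIR889, MIR544A, MIR382, MIR1185-1, MIR323B, SNORD113-1, SNORD113-2, SNORD114-24 and SNORD114-30. The difference was -2.05 ± 0.16 in MIR889 (adjusted p = 9.59e-05) and -1.57 ± 0.12 in MIR382 (adjusted p = 7.33e-05). Against the mean response of Kelly, SKNAS and SHSY5Y, 25 of the 100 were below (0.249% of all genes) and 2 above (1.29% of all genes). In untreated Kelly and SKNAS cells MIR889 averaged 2.25 and 2.71, SNORD113-1 2.14 and 2.80, and MIR382 3.01 and 3.26, while MIR323B averaged 4.93 and 5.11. Such low levels leave little room for a fall, so the 25 are not read as a response particular to BE2C. The untreated median over the genes of the stretch was 5.13 in BE2C, against 3.49 in SHSY5Y, and MIR889 averaged 2.62 in untreated SHSY5Y cells. In untreated SHSY5Y cells 8 of the 9 genes lay below the background rows on every array, whose medians ran from 3.66 to 3.92, so a fall could not have been seen there, and the test of these 8 does not show that SHSY5Y cells respond differently. The exception was MIR323B, at 5.34 after CYC065 and 5.27 in untreated SHSY5Y cells. BE2C cells averaged 5.16 after CYC065 and 6.32 untreated in MIR323B, so untreated SHSY5Y was already near the level that BE2C had after CYC065. The test of MIR323B does not show a different response of SHSY5Y cells either.

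Most falls of BE2C were also called in the other lines, which share no array with it. Of the 993 genes lower in BE2C, 902 (90.8%) were lower in Kelly, where 3593 genes or 10.9% were, so that they made up 25.1% of the Kelly falls. In SKNAS 715 (72%) were lower, which is 47.7% of its 1498 falls (4.56% of genes), and in SHSY5Y 674 (67.9%), which is 51.8% of its 1302 falls (3.96% of genes). In all 3 lines 563 were lower (56.7%), and 53 (5.34%) were called in none of the 3. The rises were counted in the same way. Of the 227, 126 were higher in Kelly (8.9% of all genes were), 92 in SKNAS (1.36%) and 54 in SHSY5Y (0.408%), 47 in all 3, and 93 (41%) were called in none. Genes of the first kind include NFKBIA, whose change was -1.17 in Kelly, -1.64 in SKNAS and -1.33 in SHSY5Y.

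The difference in response between BE2C and SHSY5Y, both given the same dose for the same time, used the BE2C arrays of the comparison above, so its results are not independent of it. Of 32870 genes 91 (0.277%) had a BE2C response above that of SHSY5Y and 18 (0.0548%) one below it. Of the 91, 83 had been called lower in SHSY5Y, with a median change of -0.30 in BE2C and -1.02 in SHSY5Y. In BE2C 44 of the 91 were called lower, 8 higher and 39 were not called. With array weights the 109 differences became 896, and with the replicate number as a block 43. Without SHSY5Y untreated replicate 3 they became 250. Without BE2C CYC065 replicate 5 or BE2C untreated replicates 1 or 2 they numbered 66, 62 and 64, and without SHSY5Y CYC065 replicates 5 or 6 or untreated replicates 1 or 2 they numbered 67, 72, 67 and 63.

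The adrenergic factors GATA3 and ISL1 fell by less in BE2C than in SHSY5Y, with differences of 0.62 ± 0.09 (adjusted p = 0.0155) and 0.55 ± 0.09 (adjusted p = 0.0219), but GATA3 lost the call without 3 single arrays and ISL1 without 7, and ISL1 also under median centring. HAND1, a bHLH factor, changed by -0.37 in BE2C and -1.79 in SHSY5Y, a difference of 1.42 ± 0.10. PPP1R15B changed by -0.72 in BE2C and -2.30 in SHSY5Y (difference 1.58 ± 0.12), the splicing kinase CLK1 by -0.76 in BE2C and -2.08 in SHSY5Y (1.32 ± 0.14), and NFIL3, a bZIP repressor, by 0.08 in BE2C and -1.42 in SHSY5Y (1.5 ± 0.20). NFIL3 averaged 4.53 after CYC065 and 4.44 untreated in BE2C, against 4.41 after CYC065 and 5.83 untreated in SHSY5Y, so untreated BE2C was already near the level that SHSY5Y had after CYC065. DUSP6, a phosphatase of ERK, changed by -0.50 in BE2C and -2.05 in SHSY5Y (1.55 ± 0.13). It measured 4.60, 4.37 and 4.55 after CYC065 and 6.73, 6.56 and 6.37 in untreated SHSY5Y cells, while BE2C cells averaged 4.43 ± 0.09 after CYC065 and 4.92 ± 0.03 untreated (SD, n = 3). With the mean of 2 rows the difference was 0.95 in PPP1R15B and 0.79 in DUSP6, both still called. PURB, a single-strand DNA binding protein, and PGBD4 differed by 1.33 ± 0.19 and 1.25 ± 0.12.

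MYC and MYCN differed in opposite directions. MYC changed by 0.11 in BE2C and -1.07 in SHSY5Y, where it measured 6.15, 6.23 and 6.44 after CYC065 and 7.35, 7.43 and 7.24 in untreated cells, a difference of 1.18 ± 0.11 (adjusted p = 0.00037). MYCN changed by -1.41 in BE2C and -0.37 in SHSY5Y, where it measured 6.35, 6.31 and 6.84 after CYC065 and 6.88, 6.96 and 6.76 in untreated cells. The difference was -1.04 ± 0.17 (adjusted p = 0.0205) and lost the call without 5 single arrays, with an adjusted p up to 0.0903 over the alternatives. MYCN changed by -2.98 in Kelly and -0.06 in SKNAS. In untreated cells MYC averaged 5.46 in BE2C and 7.34 in SHSY5Y. MYCN averaged 11.72 in BE2C, 11.74 in Kelly, 6.86 in SHSY5Y and 6.07 in SKNAS. Each gene thus had the larger fall where its untreated level was higher, and the part of the starting level in these differences was not tested. Below SHSY5Y were also RGS16, at -0.90 in BE2C and -0.15 in SHSY5Y (difference -0.75 ± 0.09, adjusted p = 0.00317), PCDH18, at -1.32 in BE2C and -0.62 in SHSY5Y (-0.70 ± 0.10, a call lost under median centring), and KLF2, at -0.55 in BE2C and 0.00 in SHSY5Y (-0.55 ± 0.10, adjusted p = 0.0438), which lost the call without 11 of the 12 arrays in turn. In untreated SHSY5Y cells RGS16, PCDH18 and KLF2 averaged 6.29, 5.72 and 6.81. These levels were already below the 6.56, 6.53 and 6.96 of BE2C cells after CYC065. The part of the starting level in these differences was not tested. RGS16 changed by -2.07 in Kelly, where it averaged 8.79 untreated. NEAT1, the long RNA of paraspeckles, changed by 0.15 in BE2C and 0.99 in SHSY5Y (-0.84 ± 0.14, adjusted p = 0.0241), a call lost without 7 single arrays and under median centring. Among U1 names RNU1-92P changed by 3.13 in BE2C and 0.06 in SHSY5Y (difference 3.07, adjusted p = 7.33e-05), and RNU1-122P by 2.61 in BE2C and 0.36 in SHSY5Y (2.25, adjusted p = 4.75e-05). In SHSY5Y RNU1-92P averaged 3.39 after CYC065 and 3.33 untreated, below the background rows, against 5.35 in untreated BE2C. RNU1-122P averaged 4.02 in untreated SHSY5Y and 5.17 in untreated BE2C. The part of these levels in the differences was not tested.

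**Figure D5:**
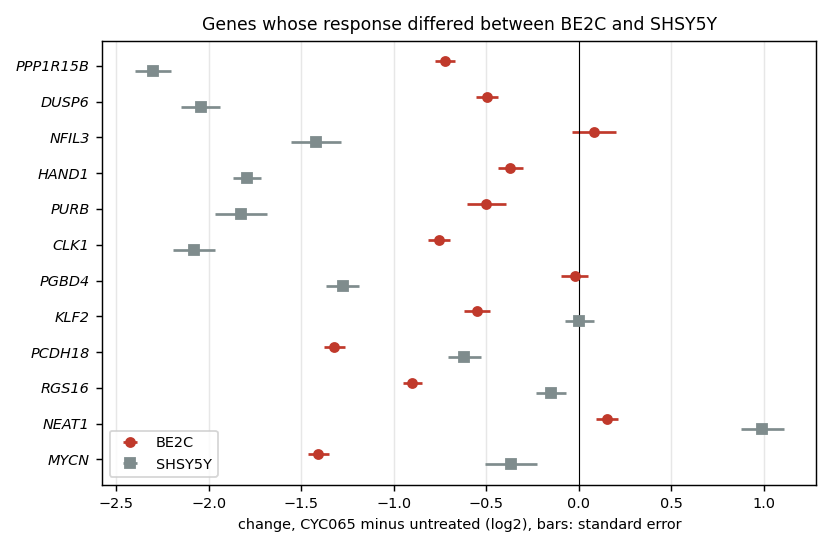
Change after CYC065 (x axis, log2, bars are standard errors) in BE2C (red circles) and SHSY5Y (grey squares), 3 arrays per group, for genes with large differences in response. The upper 7 genes have BE2C to the right of SHSY5Y, among them PPP1R15B at -0.72 in BE2C and -2.30 in SHSY5Y, and the lower 5 have BE2C to the left, among them MYCN at -1.41 in BE2C and -0.37 in SHSY5Y.

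Against the mean response of Kelly, SKNAS and SHSY5Y, BE2C was above in 425 genes (1.29%) and below in 82 (0.249%). Without BE2C untreated replicate 2 the 507 differences became 288. The doses are the same by the labels but not by the protocol for SKNAS, as given above. Those above had a median change of -0.23 in BE2C and -0.66 over the other lines. DUSP6 differed by 1.40, or by 0.71 with the mean of 2 rows, and NFIL3 by 1.35. SPRY1, an inhibitor of receptor kinase signalling, changed by 0.01 in BE2C, by -1.43 in Kelly, by -2.02 in SKNAS and by -0.21 in SHSY5Y, a difference of 1.23. PPP1R3C, which directs phosphatase 1 to glycogen, differed by 1.11. Both were low in untreated BE2C cells, SPRY1 at 5.73 and PPP1R3C at 5.14, against 9.99 and 7.32 in untreated SKNAS cells. KLF6, which fell in BE2C as well, differed by 0.98. HES1 lay below the other lines by 0.77 (difference -0.77, adjusted p = 0.0383), a call lost without 11 single arrays, with array weights and under both other scalings. It was already dim in untreated Kelly and SHSY5Y cells, at 4.60 and 4.33, and fell by 1.32 in SKNAS.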

How the data were processed

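RNA of BE2C cells was measured on Affymetrix human transcriptome arrays, 3 per group, after RNeasy purification and WT PLUS labelling, per the labels' protocols. The authors deposited 1 log2 value per array row and sample, made with RMA; the submitters' processing notes name RMA, affy and limma without versions. RMA brings arrays to the same distribution, so a change in total RNA can go unseen. The authors' deposited table gives a log2 change, a mean level and raw and adjusted p-values per gene symbol for BE2C and SHSY5Y. Array rows carry no gene name, so a symbol was given to the row, or the mean of 2 rows, with the table's change and level in both lines within 1e-07. Of 33720 symbols 32870 (97.5%) were used, 26741 with 1 row and 6129 with 2, of which the brighter was taken; 101 shared a row and 736 had no match. Searches with values moved between symbols gave 0 matches. Of 24134 symbols with a chromosome on both sides 24104 (99.9%) had the same one. The build of the array rows was not used; sequences are RefSeq's.

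BE2C was tested with limma 3.58.1 in R 4.3.3 (lmFit, eBayes, two-sided), 3 against 3. The difference from SHSY5Y was fitted to 12 arrays, and that from the mean of the other 3 lines to 24. Each fit was also tested on simulated data. Changes carry limma's standard error after ±, levels the SD. Only limma's p-values and exact permutation p-values are given, and on arrays their number limits the precision.

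The members and gene lists were chosen with earlier results of these data known. Genes named are the 20 largest falls and 10 largest rises among called genes whose groups do not overlap, without small RNA, receptor, LOC, LINC, clone and open reading frame names, the 4 largest changes of each of those classes, up to 4 called members per list, 8 differences between lines in each direction, and a set of fixed genes. Genes outside the rule (TBX2, SOX4, GATA2, SNAI2, HEY1, ID1, DBH and those between DLK1 and DIO3) were chosen after their values were seen. Not every gene that meets the rule is described, and some items are not reported here. Alternatives were quantile normalisation, median centring, removal of genes under 5 in every group, a variance trend, array weights, the mean of 2 rows, a 1.5-fold minimum, spread shared over 12 or 24 arrays, all rows, the replicate number as a block, and each array left out.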

Additional observations from a re-analysis of the deposited data

Results flagged for a closer look

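The results gathered here are genes whose response to CYC065 in BE2C differed from that in other lines by limma's test of the difference, each as BE2C change minus the other change on the log2 scale. Against SHSY5Y the differences above 0 were 1.58 in PPP1R15B, 1.55 in DUSP6, 1.5 in NFIL3, 1.42 in HAND1, 1.33 in PURB, 1.32 in CLK1, 1.25 in PGBD4, 1.18 in MYC, 0.62 in GATA3 and 0.55 in ISL1. Among U1 copies they were 3.07 in RNU1-92P and 2.25 in RNU1-122P, names whose probes may read near-identical RNAs. In SHSY5Y cells RNU1-92P lay below the background rows, as given above. Below 0 were MYCN at -1.04, NEAT1 at -0.84, RGS16 at -0.75, PCDH18 at -0.70 and KLF2 at -0.55. Untreated levels of MYC and MYCN differed widely between these lines, as given above. RGS16, PCDH18 and KLF2 were lower in untreated SHSY5Y cells than in BE2C cells after CYC065.

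Between DLK1 and DIO3 on chromosome 14 the differences from SHSY5Y were -2.05 in MIR889, -1.91 in MIR544A, -1.77 in SNORD113-1, -1.57 in MIR382, -1.49 in SNORD114-24, -1.31 in MIR1185-1, -1.26 in SNORD114-30, -1.24 in MIR323B and -1.16 in SNORD113-2. These genes were chosen after their values were seen, and in untreated SHSY5Y cells 8 of the 9, all but MIR323B, lay below the background rows, where a fall could not have been seen. MIR323B averaged 5.27 in untreated SHSY5Y cells, near the 5.16 of BE2C cells after CYC065.

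Against the mean response of Kelly, SKNAS and SHSY5Y the differences above 0 were 1.40 in DUSP6, 1.35 in NFIL3, 1.23 in SPRY1, 1.13 in PGBD4, 1.11 in PPP1R3C, 0.99 in PPP1R15B and 0.98 in KLF6. Below 0 were HES1 at -0.77, POTEE at -0.53, GOLGA8A at -0.47, POTEF at -0.45, ZNF560 at -0.44, GOLGA8B at -0.43 and LALBA at -0.43. POTEE and POTEF, and GOLGA8A and GOLGA8B, are near-identical pairs, so their values may not be separate. In untreated BE2C cells POTEE, POTEF and LALBA averaged 3.99, 4.23 and 4.08, near the background rows. POTEE and POTEF changed by 0.04 and 0.08 in BE2C and by 0.97 and 0.96 in Kelly, where they averaged 6.76 and 7.04 untreated. GOLGA8A and GOLGA8B changed by -0.14 and -0.09 in BE2C, where neither was called. They rose by 0.49 and 0.45 in Kelly and by 0.37 and 0.45 in SKNAS. ZNF560 averaged 5.35 untreated and 4.58 after CYC065 in BE2C, and 4.90 untreated and 4.21 after CYC065 in SHSY5Y. In untreated Kelly and SKNAS cells ZNF560 averaged 3.99 and 3.85, which leaves little room for a fall. Groups of 3 arrays are too small for a check of single outlying arrays.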

How the results depend on the processing

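No called gene named here changed direction under any alternative run. Of 157 genes called in BE2C and followed through the alternatives, 100 were called in every one that tested them, 57 lost the call without some single array and 39 under some other setting. The 1220 calls in BE2C became 334 with a 1.5-fold minimum and 2086 when all 24 arrays shared a spread estimate, and lay between 479 and 918 without single arrays; under the other settings they were within 1.5 times. With dim genes left out 1782 of 18821 genes were called and with a variance trend 1745. The 109 differences from SHSY5Y became 896 with array weights and 194 with dim genes left out, and 62 to 250 without single arrays. The 507 differences from the mean of the other lines became 139 with a 1.5-fold minimum and 818 with array weights, and 288 to 683 without single arrays. The causes of these shifts were not tested, except that fewer arrays or genes enter some fits. Levels near the background rows limit what can be said of dim genes, and 3 arrays per group limit small changes.

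The replicate block could be fitted only for the differences between lines, since within BE2C no number is shared by treated and untreated arrays. With it the differences from SHSY5Y numbered 43, 29 above and 14 below, and those from the other lines 393. Of 42 named genes called against SHSY5Y 14 lost the call under the block, among them MYCN, GATA3, ISL1, PCDH18 and KLF2. Deviations of the 6 same-numbered pairs of BE2C and SHSY5Y arrays correlated at -0.218 to 0.057, none above 0.1, and 1 correlated best with its own number. Over all 18 pairs of BE2C with another line 2 were above 0.1, both with SKNAS at 0.108 and 0.124, and 7 correlated best with their own number, so not every pair passed 0.1. By that rule the samples share only a number, and a call lost under the block is not read as a weaker effect.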
